A study of Bos taurus with 6 samples.

Results

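The genes described here encode the enzymes that write, copy and remove DNA methylation, with the factors that work beside them: DNMT1, UHRF1, HELLS, DNMT3A, DNMT3B, TET1, TET2, TET3 and TDG. They were taken by gene symbol from the table of genes, where each symbol stood once, and all 9 were found among 47249 genes. The study set immature against mature testes of Wandong cattle, a local breed, to follow testis development. The libraries were labelled as testes of 3 calves aged 3 months and 3 bulls aged 3 years, each animal giving 1 library of total RNA cleared of ribosomal RNA. The animals received no treatment that the labels name, and each library came from whole tissue, so that germ cells and somatic cells were measured together.

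Methyl groups on DNA sit mainly on cytosines that precede a guanine. DNMT1 copies the pattern to the new strand after replication, led there by UHRF1, and the remodeller HELLS opens chromatin for the process, whereas DNMT3A and DNMT3B methylate sites that carried no mark. The TET enzymes oxidise methylated cytosine, and TDG cuts out the oxidised base so that base excision repair can restore a plain cytosine. In the male germ line of mammals, methylation is erased in primordial germ cells and laid down again before birth, and it must then be copied at each division of the spermatogonia.

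Values are FPKM, fragments scaled to the length of the transcript and to the mapped fragments of the library, and a fold change is the difference of bulls minus calves on log2(FPKM + 1). A gene was called when its adjusted p was below 0.05 and its log2 fold change was at least 1 in size (limma, two-sided, all 6 libraries, Benjamini-Hochberg over the 18115 genes that reached an FPKM of 1 in 3 or more libraries). The tables give no counts, so the depth behind a value is unknown and no counting interval was computed. Across the genes tested, the log2 fold change had a median of 0.43, and of −0.26 after quantile normalization. The p-values measure the spread between animals of one group, and 3 animals a group limits their precision.

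The library labelled calf 3 stood apart from the other calves. Its correlation with calf 1 and calf 2 across genes was 0.764 and 0.770 on the log2 scale, against 0.979 between those calves. All 7 marker genes of oligodendrocytes were highest in it, with a summed FPKM of 13146 against 28.6 to 29.5 in the other calves and 19.7 to 23.8 in bulls. The same held for 7 of 7 astrocyte genes (2953 in calf 3, at most 169 elsewhere) and 8 of 8 neuron genes (964 in calf 3, at most 17.8 elsewhere). The summed FPKM of Leydig cell markers was 0.502 in it, against 1171 to 1432 in calf 1 and calf 2 and 1492 to 2764 in bulls. Sertoli cell markers were mixed: their sum was 872 in calf 3, below the other calves and above the bulls, with CLDN11 at 429 against 0.940 and 18.2 in the other calves and CLU at 423 against 1025 and 1222. AMH, at 0.340 in calf 3, was at 736 and 483 in the other calves. GATA4, FSHR and WT1 of Sertoli cells and HSD17B3, NR5A1, CYP11A1 and CYP17A1 of Leydig cells were listed at 0 there. Its label as testis is therefore in doubt, the part of these other cell types in the results was not tested, and the tests of the 9 genes are given with and without it.

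Markers of testis cell types also differed between the ages. Markers of round spermatids summed to 6.19 and 6.68 in calf 1 and calf 2 and to 1349 to 1510 in bulls, and those of spermatocytes to 26.4 and 35.1 against 418 to 514. The summed FPKM of Sertoli cell markers went the other way, from 2715 and 2823 in calf 1 and calf 2 to 449 to 478 in bulls. Within that list, AMH, INHA, SOX9, WT1, GATA4, FSHR, DHH and CLU were lower in bulls than in calf 1 and calf 2. CLDN11 (0.940 and 18.2 against 62.8 to 84.0) and INHBB were higher. In whole tissue, fewer cells of a type and less RNA per cell cannot be told apart, and the part of cell makeup in the differences below was not tested.

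Of the 9 genes, 5 were called between bulls and calves. UHRF1 was higher in bulls, and DNMT3A, TET2, TET3 and TDG were lower. Of all genes tested, 45.3% were called, made up of 35.7% higher and 9.61% lower. The groups did not overlap for 7 of the 9 genes, 4 lower and 3 higher in bulls, where 67.4% of all genes did so (21.3% lower and 46.1% higher). Without the library labelled calf 3, 3 genes were called, DNMT3A, TET2 and TDG, all lower in bulls, beside 51.5% of all genes called, 37.9% higher and 13.6% lower. All 9 passed the filter on low values, but TET2 and TET3 passed it through the calves alone, and 6 of the 9 reached an FPKM of 1 in every library.

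**Figure D1:**
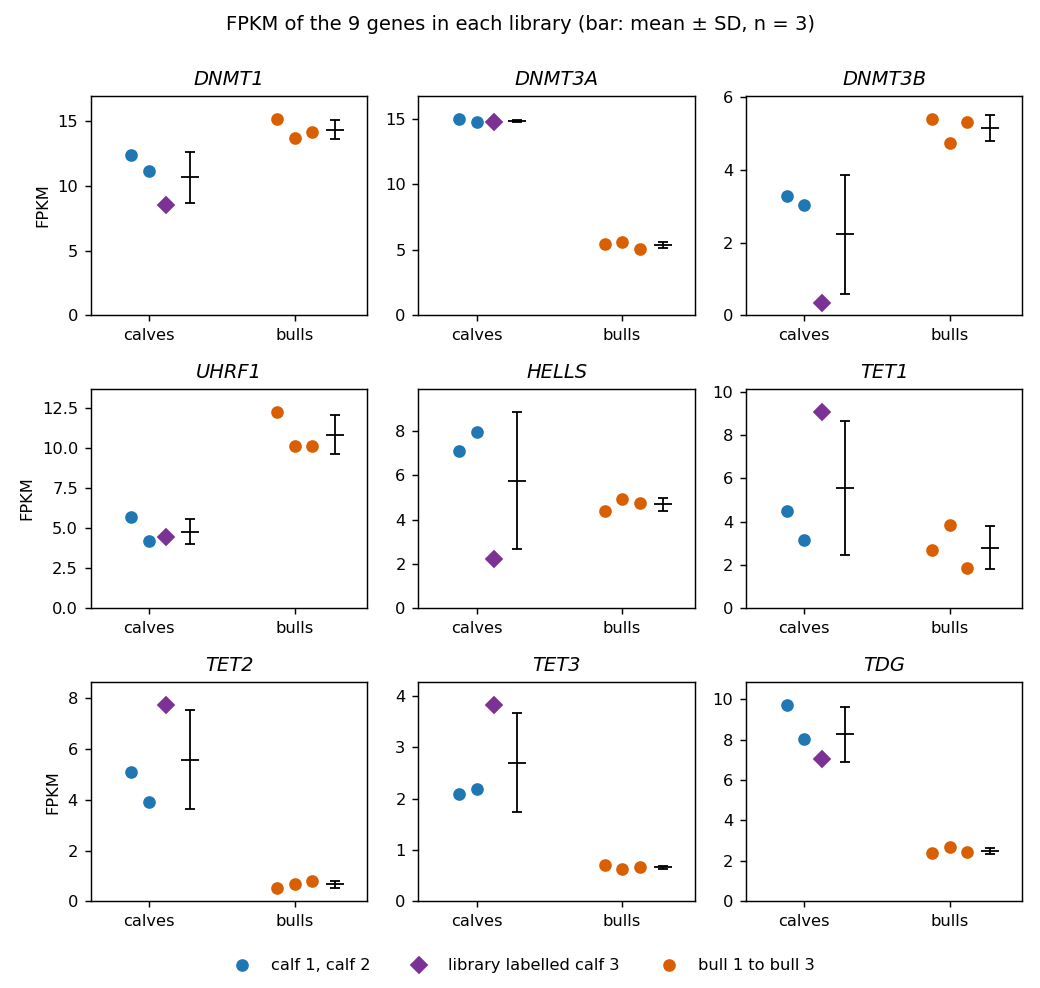
FPKM of each of the 9 genes (y axis, linear, from 0) in 3 calf and 3 bull libraries, with bars for the mean and SD of each group (n = 3) and a diamond for the library labelled calf 3. DNMT3A, TET2, TET3 and TDG lie lower in all bulls than in all calves, UHRF1, DNMT1 and DNMT3B lie higher, and HELLS and TET1 overlap.

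DNMT1, the maintenance methyltransferase (ENSBTAG00000002736, chromosome 7 from 14686995 to 14730720), was measured at FPKM values of 12.4, 11.2 and 8.50 in calves 1 to 3. In the bulls, numbered in the same way, it stood at 15.1, 13.7 and 14.2. Every bull was above every calf, by a margin smaller than the spread among the calves. The means were 10.7 ± 1.98 and 14.4 ± 0.718 (SD, n = 3 each), and the log2 fold change of 0.41 (SE, standard error, 0.18, with a 95% interval from −0.03 to 0.85) gave an adjusted p of 0.101 in limma. It was not called with or without calf 3 (0.27, adjusted p = 0.0714), it lay 0.02 below the median of all genes, and after quantile normalization its sign turned (−0.14, adjusted p = 0.573).

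UHRF1, which binds hemimethylated DNA and brings DNMT1 to it, lies on the same chromosome (ENSBTAG00000002224, 19223877 to 19258304). Its FPKM was 5.69, 4.19 and 4.48 in the calves and 12.2, 10.1 and 10.1 in the bulls. The groups did not overlap, and calf 3 stood between the other calves. The mean rose from 4.78 ± 0.796 to 10.8 ± 1.21 (SD, n = 3 each), 2.26 times as high, with a log2 fold change of 1.03 (SE 0.18, adjusted p = 0.00378, limma). Without calf 3, the log2 fold change was 0.9998 (adjusted p = 0.00194), just under the change required. The call was also lost after quantile normalization (0.52, adjusted p = 0.0593). Its Ensembl transcript, described with the others, kept its call without calf 3, and its fit after quantile normalization is not given here.

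HELLS, a chromatin remodeller of the SNF2 family (ENSBTAG00000005979, chromosome 26 from 16021677 to 16041531), was measured at 7.08 and 7.94 in calf 1 and calf 2 and at 2.23 in calf 3. The bulls lay between these values, at 4.37, 4.94 and 4.76. The log2 fold change was −0.11 (SE 0.41, 95% interval −1.12 to 0.89, adjusted p = 0.829, limma), an interval wide enough to hold a change of the size required in the lower direction. Without calf 3 it was −0.58 (SE 0.13, adjusted p = 0.00790), under the size required for a call. Calf 3 thus widened the spread of this gene: calf 1 and calf 2 had on average 3.36 times its level.

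DNMT3A, a de novo methyltransferase (ENSBTAG00000021143, chromosome 11 from 73971560 to 74074893), showed the smallest spread of the 9 genes among calves. Its FPKM was 15.0, 14.8 and 14.8 in the calves and 5.46, 5.57 and 5.09 in the bulls. All bulls lay far below all calves, and the library labelled calf 3 was at 0.994 of the mean of the other calves. The mean fell from 14.8 ± 0.105 to 5.37 ± 0.250 (SD, n = 3 each), 2.76 times as high in calves, with a log2 fold change of −1.32 (SE 0.14, adjusted p = 0.000440, limma). It was −1.32 without calf 3 too, and 1.74 below the median of all genes. The call held in each of the 18 alternatives run for it, between −1.91 and −1.16.

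DNMT3B, the other de novo methyltransferase (ENSBTAG00000003901, chromosome 13 from 62142537 to 62176363), reached an FPKM of 3.29 in calf 1, 3.03 in calf 2 and 0.349 in calf 3. The bulls were at 5.38, 4.73 and 5.30. Each bull was above each calf, and calf 3 was the lowest library by a wide margin, calf 1 and calf 2 having 9.04 times its level. The log2 fold change of 1.102 (SE 0.47, 95% interval −0.05 to 2.25) was not called, with an adjusted p of 0.0920 in limma. Without calf 3 the change was smaller and its error narrower (0.56, SE 0.14, adjusted p = 0.00998), again short of a call.

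TET1, the first of the oxidising enzymes (ENSBTAG00000037756, chromosome 28 from 24918286 to 25047667), had overlapping groups at the level of the gene. Its FPKM was 4.48, 3.13 and 9.04 in the calves and 2.70, 3.83 and 1.86 in the bulls. Calf 3 was the highest library, at 2.37 times the mean of calf 1 and calf 2, and bull 2 was above calf 2. The log2 fold change was −0.72 (SE 0.39, 95% interval −1.67 to 0.23, adjusted p = 0.164, limma) and −0.36 without calf 3 (adjusted p = 0.251). Quantile normalization made it a call, lower in bulls (−1.40, adjusted p = 0.0291), and the transcripts behind this value, given below, differed between the ages.

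TET2 (ENSBTAG00000017682, chromosome 6 from 19898416 to 19995309) had the largest log2 fold change in size of the 9 genes. Its FPKM was 5.09, 3.90 and 7.71 in the calves and 0.530, 0.698 and 0.810 in the bulls. No bull reached an FPKM of 1, and the lowest calf stood well above the highest bull. The mean was 5.57 ± 1.95 in calves and 0.679 ± 0.141 in bulls (SD, n = 3 each), 8.20 times as high in calves, and 6.62 times when calf 3 was left out. The log2 fold change was −1.93 (SE 0.25, adjusted p = 0.000970, limma) and −1.71 without calf 3 (adjusted p = 0.000175), and the gene was called lower in each of the 17 alternatives that tested it.

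TET3 (ENSBTAG00000022381, chromosome 11 from 10561669 to 10666478) in mice oxidises the paternal genome of the zygote. By gene value it had the lowest mean of the 9 in bulls, within the range of TET2. With Ensembl transcripts alone, TET1 was lower in bulls, at a mean of 0.171 against 0.664 for TET3. For TET3, the calves gave an FPKM of 2.09, 2.20 and 3.82 and the bulls one of 0.700, 0.631 and 0.662. The groups did not overlap, and calf 3 was the highest library. The mean fell from 2.70 ± 0.968 to 0.664 ± 0.0347 (SD, n = 3 each), 4.07 times as high in calves, with a log2 fold change of −1.12 (SE 0.20, adjusted p = 0.00434, limma). Without calf 3 the mean of the calves was 3.23 times that of the bulls, and on the log2(FPKM + 1) scale, which understates the change of low genes, the difference of −0.92 (adjusted p = 0.000677) fell short of a call.

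TDG, the thymine DNA glycosylase (ENSBTAG00000021633, chromosome 5 from 67632504 to 67653338), had an FPKM of 9.69, 8.05 and 7.02 in the calves. The bulls were at 2.37, 2.69 and 2.42. Each calf was above each bull, and calf 3 was the lowest calf. The mean fell from 8.25 ± 1.34 to 2.49 ± 0.170 (SD, n = 3 each), 3.31 times as high in calves. The log2 fold change was −1.40 (SE 0.18, adjusted p = 0.00105, limma), −1.49 without calf 3 (adjusted p = 0.000195), and called lower in each of the 18 alternatives. TDG shares its locus with C5H12orf73 (67619641 to 67644707), for which the log2 fold change was 0.33 (adjusted p = 0.194).

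**Figure D2:**
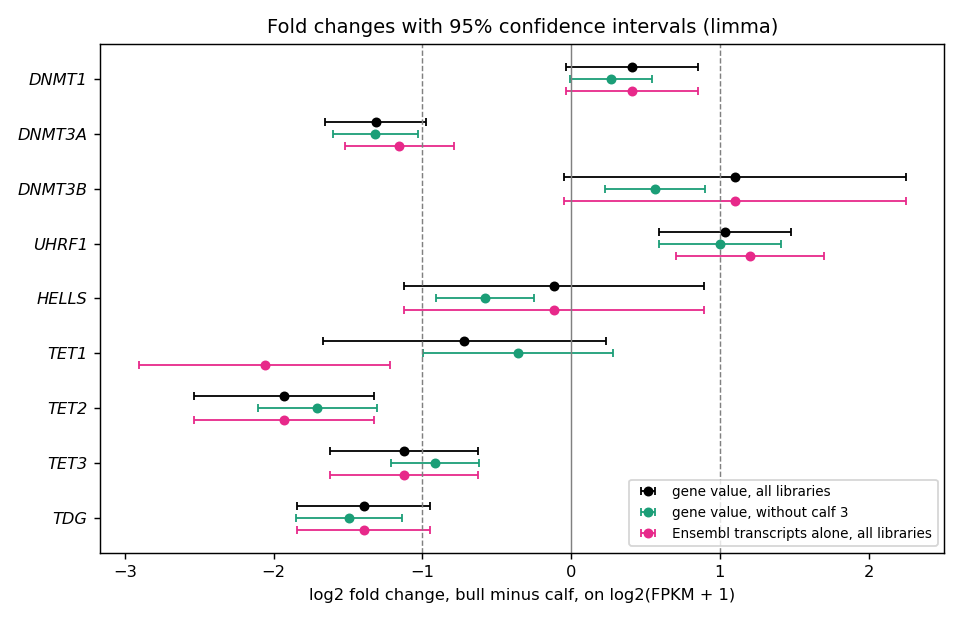
Log2 fold change of bulls minus calves on log2(FPKM + 1) for each of the 9 genes (x axis), with 95% confidence intervals from limma. Black marks the gene value in all libraries, green the gene value without calf 3 and magenta the Ensembl transcripts alone, and dashed lines mark a log2 fold change of 1 in either direction. DNMT3A, TET2 and TDG lie past −1 in all 3 fits, and TET1 moves from −0.72 to −2.06 when its Ensembl transcripts are taken alone.

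Against calf 1 and calf 2, the library labelled calf 3 was not displaced in one direction. It was above both for TET1, TET2 and TET3, at 2.37, 1.71 and 1.78 times their mean, and in each case it was the highest of the 6 libraries. It was below both for DNMT1, HELLS, DNMT3B and TDG, and the lowest of the 6 for the first 3 of these. Over all genes tested, 38.1% were above and 46.7% below both other calves in calf 3. Leaving calf 3 out moved the log2 fold change by less than its standard error for DNMT1, UHRF1, TET1, TET2 and TDG and by more for HELLS, DNMT3B and TET3, and for DNMT3A the change was the same at 2 decimals.

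The order of levels, which FPKM allows as a value per length, differed between the ages. In calves the means ran from DNMT3A (14.8) through DNMT1 (10.7), TDG (8.25), HELLS (5.75), TET2 (5.57), TET1 (5.55), UHRF1 (4.78) and TET3 (2.70) to DNMT3B (2.22). Of the neighbours in this order, only DNMT3A and DNMT1, and UHRF1 and TET3, had ranges that did not overlap. In bulls the order was DNMT1 (14.4), UHRF1 (10.8), DNMT3A (5.37), DNMT3B (5.14), HELLS (4.69), TET1 (2.80), TDG (2.49), TET2 (0.679) and TET3 (0.664). The ranges of DNMT3A and DNMT3B, of DNMT3B and HELLS, of TET1 and TDG and of TET2 and TET3 overlapped in bulls. By these gene values, transcripts assembled by the authors included, DNMT3A thus led in calves and stood level with DNMT3B in bulls. With Ensembl transcripts alone, DNMT3A was at 11.9, 11.7 and 10.9 in the calves. This range overlapped that of DNMT1, which was the higher in calf 1. In the bulls, DNMT3A was then at 4.43, 4.97 and 4.41, below DNMT3B in bull 1 and bull 3, with ranges that still overlapped. TET1 then had the lowest mean in bulls, at 0.171.

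The 9 genes had 29 entries in the table of transcripts, 22 of them named by Ensembl and 7 assembled by the authors. The FPKM of each gene was the sum of its entries. Of the 10 entries that passed the filter, 1 was called higher in bulls and 6 lower, where 44.2% of all 23212 transcripts tested were called, 34.8% higher and 9.37% lower. Of the 6 called lower, 4 (DNMT3A-OT2, TET1-201, TET2-201 and TET3-203) were below an FPKM of 1 in every bull and passed the filter through the calves alone. Without a filter, all 6 were still called lower, where 10.1% of 103186 transcripts were called, 8.37% higher and 1.68% lower. UHRF1-201 was the entry called higher, with a log2 fold change of 1.20 (adjusted p = 0.00370, limma) that stayed past the threshold without calf 3 (1.09). The entries called lower were DNMT3A-201 (−1.28), DNMT3A-OT2 (−1.13), TET1-201 (−2.06), TET2-201 (−1.93), TET3-203 (−1.08) and TDG-201 (−1.40). Without calf 3, DNMT3A-OT2 was no longer called (−0.95) and the other 5 entries still were, TET3-203 with −1.03, beside 49.2% of all transcripts called, 36.1% higher and 13.1% lower.

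TET1 was made of different entries in calves and in bulls. TET1-201 (ENSBTAT00000010614, 24918286 to 25035716), the annotated messenger RNA, had an FPKM of 3.15, 2.36 and 7.38 in the calves and of 0.140, 0.190 and 0.185 in the bulls. Its groups were far apart, the mean in calves being 25.1 times that in bulls, and 16.1 times without calf 3. The log2 fold change of −2.06 (SE 0.35, adjusted p = 0.00356, limma over transcripts) was −1.67 without calf 3 (adjusted p = 0.000338). The other Ensembl entry, TET1-202, was listed at 0 in every library.

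Most of the TET1 value in bulls came from 3 assembled entries that the table names TET1-AS1, TET1-AS2 and TET1-AS3. Together they took 93.7%, 92.1% and 81.7% of the gene FPKM in the bulls and 10.3%, 5.33% and 2.72% in the calves. TET1-AS2 and TET1-AS3, both placed from 25030135 to 25047667, were listed at 0 in all calves. In the bulls, TET1-AS2 was at 1.15, 2.56 and 0.783 and TET1-AS3 at 1.28, 0.783 and 0.373. TET1-AS1 (25030135 to 25035202) was at 0.464, 0.167 and 0.246 in the calves and at 0.0964, 0.181 and 0.365 in the bulls, so that its groups overlapped. TET1-AS2 and TET1-AS3 did not reach the filter, and without a filter TET1-AS2 was called higher in bulls (adjusted p = 0.0304, limma, where 8.37% of all transcripts were called higher), while TET1-AS3 was not (adjusted p = 0.0462).

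The library kit kept the strand of the RNA, according to the methods, but whether the values were computed by strand was not given in the sources used here. Reads of TET1 and of these entries therefore cannot be told apart with certainty where they overlap. The end of TET1-AS2 and TET1-AS3 also lies inside CCAR1 (25043128 to 25093181), whose log2 fold change was 0.09 (adjusted p = 0.797). With the assembled entries removed from all 9 genes, a choice made after seeing the data, TET1 was called lower in bulls and the number called became 6, UHRF1 higher and DNMT3A, TET1, TET2, TET3 and TDG lower, beside 45.4% of all genes (35.7% higher and 9.62% lower). Without calf 3 as well, 5 of these were called, TET3 not among them.

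**Figure D3:**
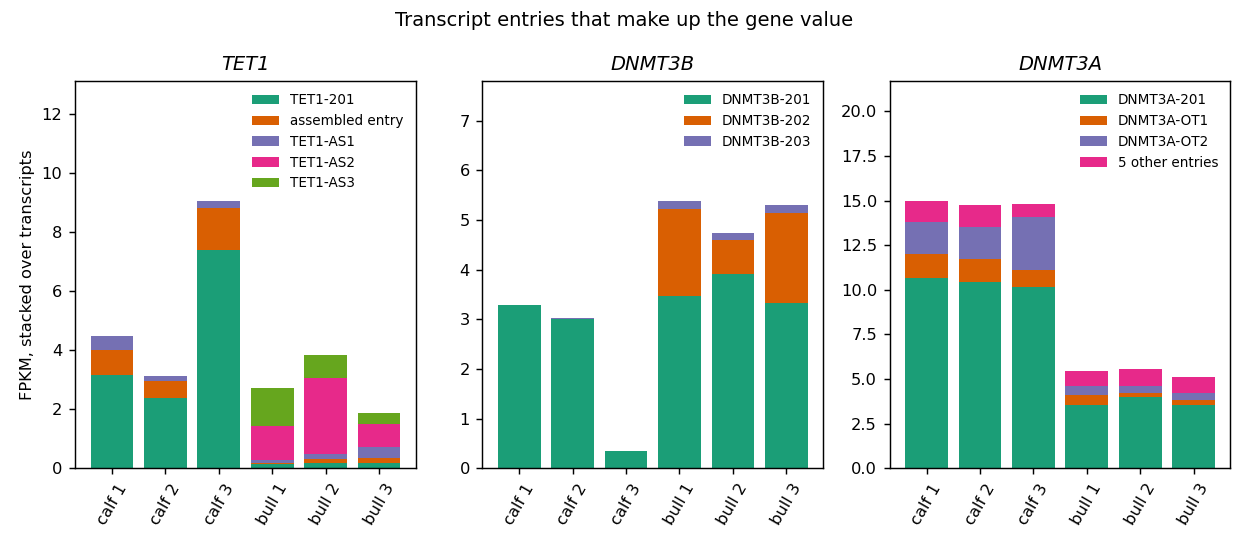
Stacked bars of FPKM (y axis, from 0) by transcript entry for TET1, DNMT3B and DNMT3A in each of the 6 libraries. TET1-201 makes most of TET1 in the calves and TET1-AS2 and TET1-AS3 most of it in the bulls, DNMT3B-202 appears in the bulls alone, and DNMT3A-201 leads in every library.

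DNMT3B also had an entry seen in bulls alone. DNMT3B-202 (ENSBTAT00000084219) was listed at 0 in all calves and at 1.75, 0.673 and 1.80 in the bulls, where it made 32.6%, 14.2% and 34.0% of the gene. It was called higher in the fit without a filter (adjusted p = 0.0211, limma). The main entry, DNMT3B-201 (ENSBTAT00000069734), was at 3.29, 3.02 and 0.349 in the calves and at 3.47, 3.92 and 3.33 in the bulls. Calf 1 and calf 2 stood close to the bulls for this entry, with a log2 fold change of 0.14 without calf 3 (adjusted p = 0.450) against 0.68 with it (adjusted p = 0.274). Both entries span the same positions, so that the split of reads between them is uncertain.

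For DNMT3A the main entry held a like share in both groups. DNMT3A-201 (ENSBTAT00000070371) took 68.6% to 71.3% of the gene FPKM in the calves and 65.2% to 71.6% in the bulls. The assembled entries DNMT3A-OT1 and DNMT3A-OT2, which lie inside the locus, took 20.6% to 26.6% in the calves and 10.7% to 18.8% in the bulls, ranges that did not overlap. DNMT1-202 made at least 97.8% of DNMT1, and TDG-201 at least 99.7% of TDG, in every library. For TET3, the share of TET3-203 varied within the bulls, at 5.64%, 64.2% and 56.5%, and no reading of its isoforms was attempted.

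Ratios between genes of one library do not move with its scaling, and 5 of them were compared. DNMT3A was 4.55, 4.89 and 42.4 times as high as DNMT3B in the calves and 1.01, 1.18 and 0.960 times in the bulls. The high ratio of calf 3 followed its low DNMT3B, and the ratio in the other calves was still above that in all bulls. The mean log2 ratio differed by −3.23 between bulls and calves, and by −2.17 without calf 3. In an exact permutation test over samples (two-sided, 20 labelings), p was 0.1, the smallest that 3 against 3 allows, and 0.1 after adjustment over the 5 ratios. The design therefore cannot bring any of these ratios under 0.05.

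DNMT1 was 2.17, 2.67 and 1.90 times as high as UHRF1 in the calves and 1.24, 1.36 and 1.40 times in the bulls, a difference of −0.74 in log2 ratio and of −0.86 without calf 3. TET2 exceeded TET3 by 2.43, 1.78 and 2.02 times in the calves, and in the bulls the ratio was 0.757, 1.11 and 1.22. This difference was −1.03 in log2 ratio, and −1.04 without calf 3. Both ratios were lower in every bull than in every calf (exact permutation p = 0.1 each). The ratio of TET1 to TET3 was higher in all bulls (difference 1.06, exact permutation p = 0.1), but with Ensembl transcripts alone it was lower in all bulls, by −2.51 and by −2.31 without calf 3.

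The summed FPKM of the methyltransferases was 30.6, 29.0 and 23.6 in the calves and 26.0, 24.04 and 24.6 in the bulls, ranges that overlapped. Its makeup differed: DNMT3A held 48.9%, 51.0% and 62.6% of the sum in the calves and 21.0%, 23.2% and 20.7% in the bulls. DNMT1 went from 40.4%, 38.6% and 35.9% to 58.3%, 57.2% and 57.7%. These sums and shares are of gene values, assembled entries included. With Ensembl transcripts alone, DNMT3A was at 11.9 in calf 1, below DNMT1 at 12.4, so its largest share there rests on the assembled entries. The summed FPKM of the TET genes, with Ensembl transcripts alone, was 10.3, 8.46 and 18.9 in the calves and 1.37, 1.52 and 1.66 in the bulls. The ratio of the 2 sums was taken with Ensembl transcripts alone on both sides, so the methyltransferase sums above do not enter it. The methyltransferase sum was then 2.66, 3.07 and 1.04 times the TET sum in the calves. In the bulls it was 18.2, 15.4 and 14.4 times. On the log2 scale the difference was 2.97, and 2.48 without calf 3, whereas the gene values, assembled entries included, gave 1.53 and 1.09 (exact permutation p = 0.1 with all libraries, for either).

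**Figure D4:**
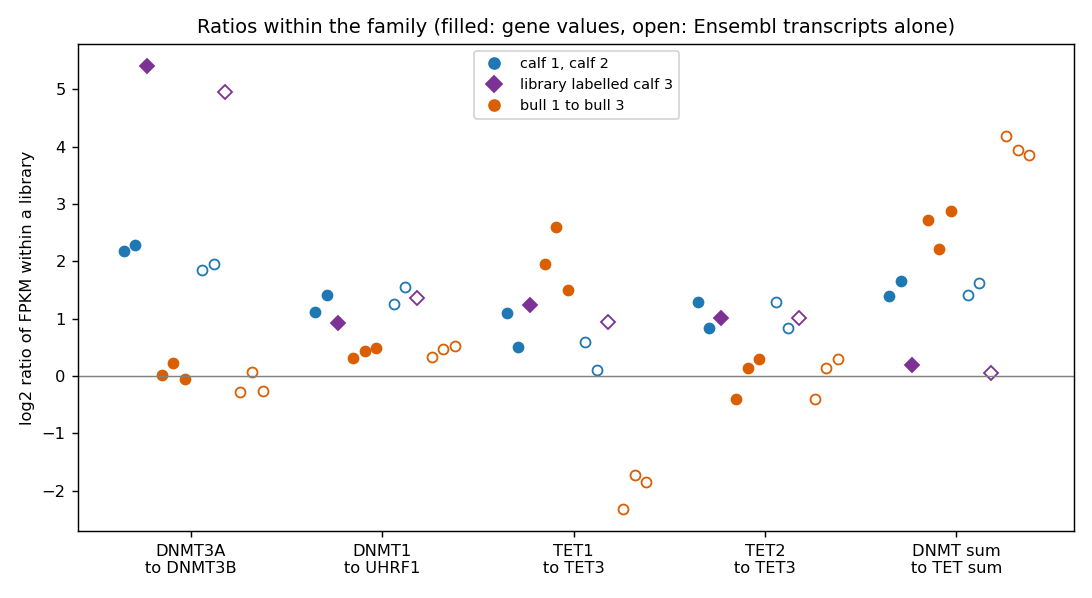
Log2 ratio of FPKM between genes within each library (y axis) for the 5 ratios named under the x axis, filled for gene values and open for Ensembl transcripts alone, with a diamond for the library labelled calf 3. Calves and bulls separate in each ratio, and the ratio of TET1 to TET3 lies higher in bulls for gene values (difference 1.06) and lower for Ensembl transcripts (−2.51).

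The genes that work with these enzymes were read from 6 lists, of which 74 genes could be tested out of 82 listed. In bulls 18 of them passed as higher and 9 as lower, 36.5% of the 74, beside 45.3% of all genes. Without calf 3, 17 were called in each direction, beside 37.9% of all genes called higher and 13.6% lower in that fit, and 17 of the genes called higher and 8 of those called lower were the same. After quantile normalization the split was 9 higher and 26 lower, beside 46.2% of all genes called, 21.1% higher and 25.1% lower. The symbols DNMT3L and UNG were not matched in the table and are not analysed here.

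Among 11 partners of the methyltransferases, 3 were called higher and 1 lower, 36.4% of the list, beside 45.3% of all genes. The median log2 fold change was −0.22, beside 0.43 over all genes. Without calf 3, 3 were called higher and 4 lower, beside 37.9% and 13.6% of all genes. TRIM28, a corepressor that recruits silencing factors to retroelements, rose from a mean FPKM of 48.5 to 217 (log2 fold change 2.24, adjusted p = 0.00257, limma). DMAP1, which binds DNMT1, rose from 11.9 to 41.4 (1.75, adjusted p = 0.000700). USP7, a deubiquitinase that binds DNMT1 and UHRF1, rose from 32.7 to 85.3 (1.36, adjusted p = 0.000550), but was not called after quantile normalization. NSD1, a histone methyltransferase whose mark DNMT3A reads, fell from 19.8 to 6.84 (−1.41, adjusted p = 0.000518).

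The list of methyl-CpG binding proteins was made by family, and whether each member binds methylated DNA was not tested. Of 10 tested, 2 were called higher and 3 lower, 50% of the list, beside 45.3% of all genes. The median was −0.42, beside 0.43 over all genes. Without calf 3 the counts were 2 and 2, beside 37.9% of all genes called higher and 13.6% lower. After quantile normalization they were 2 and 5, beside 21.1% and 25.1%. MBD1 rose from 12.4 to 64.7 (2.30, adjusted p = 0.000122, limma) and MBD3, a subunit of the NuRD complex, from 20.5 to 76.3 (1.86, adjusted p = 0.000243). The zinc finger readers ZBTB38 (−1.11) and ZBTB33 (−1.10) were called lower with and without calf 3.

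Of 7 tested partners of the TET enzymes and deaminases, none was called higher and 2 were called lower. These calls made up 28.6% of the list, beside 45.3% of all genes, and the median was −0.85, beside 0.43 over all genes. Without calf 3, 4 of the 7 were called lower, in a fit that called 13.6% of all genes lower against 9.61% with all libraries. OGT, the sugar transferase that binds TET proteins, fell from 36.6 to 6.83 (−2.18, adjusted p = 0.00185, limma). Its FPKM was 27.0, 26.5 and 56.4 in the calves, so calf 3 was high as it was for the TET genes, and without it the log2 fold change was −1.83. IDH2, a source of the oxoglutarate that TET enzymes use, fell from 21.9 to 8.08 (−1.32, adjusted p = 0.00203). Both were called without calf 3.

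The list for base excision repair holds other glycosylases beside the steps after TDG. It had 16 genes tested, 4 called higher, 2 called lower and a median of 0.18, beside 0.43 over all genes. These calls made up 37.5% of the list, beside 45.3% of all genes. Without calf 3, 4 were called in each direction, with a median of −0.19. After quantile normalization 3 were called higher and 5 lower, with a median of −0.51. POLB, the polymerase that fills the gap, rose from 22.4 to 269 (3.68, adjusted p = 0.000701, limma). LIG3, the ligase that seals it, rose from 7.36 to 76.2 (3.22, adjusted p = 6.72e-05), and its scaffold XRCC1 from 7.63 to 54.4 (2.78, adjusted p = 0.000904). The glycosylases MUTYH (−1.02) and NTHL1 (−1.02) were called lower, in the direction of TDG. The other glycosylases of the list were not called with all libraries. Among them, NEIL1 (−0.10), NEIL2 (−0.78) and SMUG1 (−0.87) lay lower, and OGG1 (0.92) and NEIL3 (1.01) higher. POLB, LIG3, XRCC1, MUTYH and NTHL1 each kept their call without calf 3.

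For S-adenosylmethionine and one-carbon supply, which provides the methyl group, 4 of 15 genes were called higher and 1 lower. These calls made up 33.3% of the list, beside 45.3% of all genes, and the median was −0.73, beside 0.43 over all genes. Without calf 3 the counts were 4 and 3, beside 37.9% of all genes called higher and 13.6% lower. After quantile normalization they were 2 and 8, beside 21.1% and 25.1%. With all libraries, MAT1A and BHMT, both called higher, were below an FPKM of 1 in every calf. They passed the filter on low values through the bulls alone. BHMT, which remethylates homocysteine with betaine, was at 0.308, 0.177 and 0 in the calves and at 28.9, 28.2 and 20.2 in the bulls (adjusted p = 2.25e-05, limma). MTR, the methionine synthase, rose from 6.64 to 21.4 (1.55, adjusted p = 0.000265), though it was not called after quantile normalization. AHCYL1, a relative of the enzyme that clears S-adenosylhomocysteine, fell from 59.7 to 16.2 (−1.82, adjusted p = 0.000200).

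The list for DNA replication and proliferation, the setting in which DNMT1, UHRF1 and HELLS act, had 15 genes tested. With all libraries, 5 of them (33.3%) were called higher and none lower (median 0.97), beside 35.7% of all genes called higher. Without calf 3, 4 (26.7%) were called higher (median 0.28), beside 37.9% of all genes. After quantile normalization, with all libraries, none was called in either direction. TOP2A had an FPKM of 16.7, 6.77 and 0.987 in the calves and 37.1, 40.9 and 34.1 in the bulls (2.56, adjusted p = 0.0308, limma). MCM4 rose from 13.7 to 48.6 (2.04, adjusted p = 0.0284) and PCNA, the clamp to which DNMT1 binds, from 24.4 to 64.3 (1.47, adjusted p = 0.0193). Without calf 3 all 3 were called, with smaller log2 fold changes of 1.71 for TOP2A, 1.33 for MCM4 and 1.04 for PCNA.

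**Figure D5:**
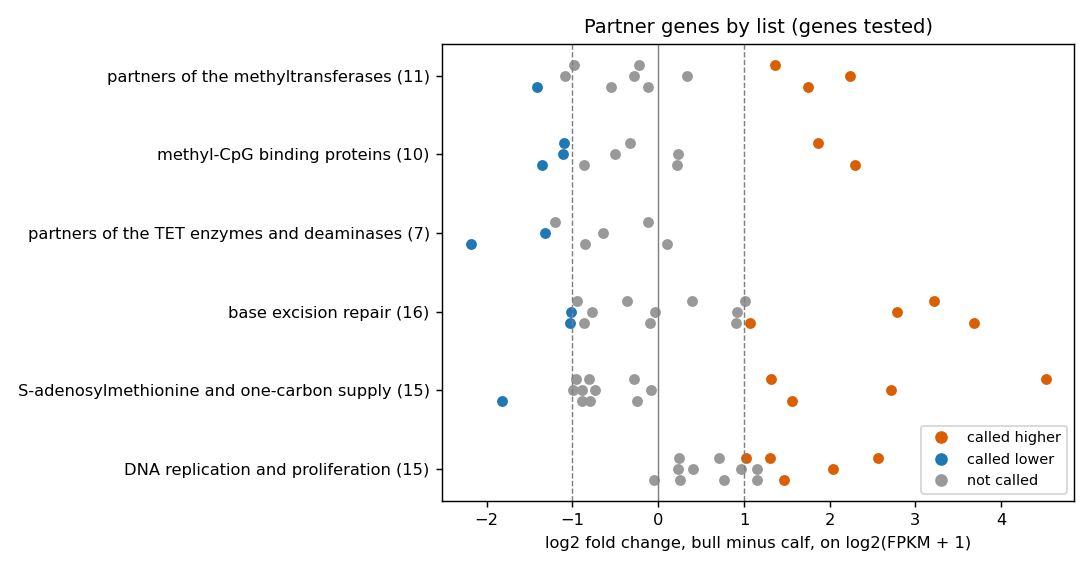
Log2 fold change of bulls minus calves on log2(FPKM + 1) (x axis) for the 74 tested genes of 6 lists, 1 point per gene, with the number tested beside each list and dashed lines at a log2 fold change of 1 in either direction. Orange points were called higher (18) and blue points lower (9), the highest being BHMT at 4.52 and the lowest OGT at −2.18.

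The genes whose pattern over the 6 libraries was nearest to each of the 9 were found by the root mean square difference of log2(FPKM + 1), centred on each gene's mean. This is a description over 6 libraries that share their depth and makeup, with no test. The nearest 3 were BOD1, TMCO6 and ZNF576 for DNMT1, RANBP3, POMC and TAT for UHRF1, and TNFRSF1A, POP5 and ABCC6 for HELLS. SMAD5, LRCH1 and ADGRA3 were nearest to DNMT3A, and GMPS, MCTP2 and POLD1 to DNMT3B. For TET1 they were TLN2, IKZF2 and HNMT, for TET2 DLC1, PDZD2 and EFS, for TET3 MGRN1, ARHGAP6 and SMARCC2, and for TDG PYCARD, HELB and TCIRG1. The smallest difference was that of MGRN1 from TET3 (0.039), and the largest of the 27 that of HNMT from TET1 (0.14). SMAD5, with an FPKM of 17.7, 18.2 and 16.9 in the calves and 6.08, 6.70 and 6.20 in the bulls, shared the flat levels of DNMT3A within each age.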

How the data were processed

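The authors sequenced strand-specific libraries depleted of ribosomal RNA. According to their methods, reads matching ribosomal RNA were removed with Bowtie2, the others were mapped with TopHat2, and transcripts were assembled with StringTie. The authors deposited FPKM values per gene and per transcript for each library. The authors name Cuffdiff, Ballgown and edgeR for circular RNAs, and whether any of them made these tables was not given in the sources used here. The methods name UMD 3.1.1, but of 16922 named genes, 97.1% had their symbol in RefSeq for ARS-UCD2.0, and 99.4% of those 16434 genes, with all 9 described here, overlapped the same locus. Positions are therefore those of the tables, read as an ARS-UCD assembly.

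Values were transformed to log2(FPKM + 1), filtered to features that reached an FPKM of 1 in 3 or more libraries, and fitted with limma 3.58.1 (empirical Bayes with trend, no covariates) in R 4.3.3 with data.table version 1.17.8. Figures used Python 3.11.15 and matplotlib 3.10.9. On simulated tables with 200 features changed by a log2 fold change of 2, 181 of 200 genes (18115 genes, 90.5%) and 161 of 200 transcripts (23212 transcripts, 80.5%) were recovered, with 2 and 6 false calls. Ratios were tested by exact permutation. Groups and numbers came from the sample titles. FPKM sums per library ran from 587066 in calf 3 to 1098715 in calf 2, and counts, hence depth, were not given.

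The 9 genes, the partner lists and the marker lists were chosen with earlier results of these data known. All rows of the 9 genes are named. Of each partner list, the 3 genes called with the largest increase and the 3 with the largest decrease are named, and for each of the 9 genes the 3 with the nearest pattern. Of the marker lists, those that touch a result are given. Alternatives were other pseudocounts, filters and scalings, array weights, no trend, a replicate block, each library left out, and, added after seeing the data, Ensembl transcripts only. Some genes that this rule names are not reported here. Circular RNAs were not analysed here.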

Additional observations from a re-analysis of the deposited data

How the results depend on the processing

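The number of these genes called, 5, became 3 when an FPKM of at least 1 was required in every library, since TET2, TET3 and DNMT3B were then not tested, and 3 with array weights, where UHRF1 (0.99) and TET3 (−0.93) fell under the change required and the cause was not tested. It ranged from 3 to 5 with 1 library left out: 3 without calf 3, and 4 without calf 2 or without bull 1, where UHRF1 was lost (0.96 and 0.95). UHRF1 lost its call in 7 of 18 alternatives, among them median-ratio scaling (0.90) and scaling to genes with a symbol (0.79), and TET3 in 3 of 17. The calls for member transcripts, 7, became 3 under the same strict filter, and ranged from 6 to 7 with 1 library left out, those for partner genes, 27, from 21 to 34. The share of all calls that were higher in bulls was 78.8%, and 45.8% after quantile normalization, so directions near the median of all genes depend on scaling.

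The sign turned for DNMT1 after quantile normalization (−0.14), for HELLS without calf 1 (0.08) and without calf 2 (0.15, against −0.58 without calf 3), and for the log2 ratio of TET1 to TET3 with Ensembl transcripts only (−2.51, and −2.31 without calf 3 as well). Samples that share a number correlated at 0.028, 0.025 and 0.034 in their deviations from the group means. These values are small, although each calf correlated best with its own number. With 3 samples a group, they cannot decide whether the numbers pair the samples. With the replicate block, 5 of the 9 genes, 7 member transcripts and 26 partner genes were called. The exact permutation p of each ratio, with labels exchanged only between samples that share a number, was 0.25. This is the smallest p that the blocked test allows, so it cannot be set against the 0.1 of the test without a block.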

Other observations

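Within the partner lists, 9 genes not called with all libraries were called lower in bulls without the library labelled calf 3, and were named after their values were seen: UHRF2, CDCA7, CDCA7L, GADD45A, GADD45G, NEIL2, SMUG1, AHCY and MTHFD1. Of these, 6 (UHRF2, CDCA7, GADD45G, SMUG1, AHCY and MTHFD1) were also called lower after quantile normalization of all libraries. Of all genes, 25.1% were called lower after quantile normalization and 13.6% without calf 3, against 9.61% with all libraries in the main fit. No gene of the lists was newly called higher without calf 3. CDCA7, which works with HELLS, stood at 8.69 in calf 1, 9.0 in calf 2 and 0.376 in calf 3, in FPKM, against 1.27, 1.35 and 1.58 in the bulls. Its log2 fold change was −1.09 (adjusted p = 0.282, limma) with all libraries and −2.04 (adjusted p = 4.51e-05) without calf 3. HELLS had the same shape, high in calf 1 and calf 2, low in calf 3 and lower in the bulls than in calf 1 and calf 2. UHRF2, the relative of UHRF1, was at 15.6, 11.4 and 9.08 in the calves and at 5.23, 6.41 and 4.83 in the bulls, with a log2 fold change of −0.98 (adjusted p = 0.0137) and −1.16 without calf 3. It lay lower in every bull than in every calf, where UHRF1 lay higher.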
